A study of Homo sapiens with 6 samples.

Results

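A set of 10 genes was followed through the RNA of a DAPK3 knockout experiment: the matrix metalloproteinase (MMP) genes MMP1, MMP2, MMP3, MMP7, MMP9, MMP14 and MMP15, and TIMP1, TIMP2 and TIMP3, which encode tissue inhibitors of metalloproteinases. They were chosen by symbol, and all 10 were found among the 60675 genes of the deposited table. The cells were SUM159, a human cell line established from a triple-negative breast cancer. There were 3 libraries labelled DAPK3 KO, all from 1 knockout line that the protocol numbers 3, and 3 libraries labelled control with genotype DAPK3 WT. Both groups shared 1 culture medium, with hydrocortisone (1 µg/mL), insulin (5 µg/mL), HEPES (10 mM) and serum (5%) added. Whether the 3 libraries of a label are separate cultures is not stated, and p-values cover no more than the spread between libraries, possibly a technical one.

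MMPs are secreted or membrane-bound proteases that hold a zinc ion in the active site, are made as inactive proenzymes, and cut collagens and other matrix proteins. TIMPs bind the active site and block it. In many tissues MMP2 is activated at the cell surface by MMP14, with TIMP2 as the adaptor that holds the MMP2 proenzyme beside it, so these 3 proteins form a working unit. DAPK3 is a serine/threonine kinase known for acting on myosin light chains and in cell death.

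Levels are given as CPM, read counts scaled to a common library total with TMM factors, and libraries held 16312184 to 22970823 expected counts. DAPK3 RNA went against the label in 1 library of each group, both numbered R2. Values given for 3 libraries are in the order R1, R2, R3. DAPK3 stood at 13.1, 27.2 and 11.2 CPM in the KO libraries, against 26.2, 10.5 and 26.1 CPM in the control libraries, which gave −0.29 as log2 of KO over control (SE 0.47, edgeR adjusted p = 0.877). KO R2 was thus high for its label and control R2 low. Whether the R2 libraries of the groups were exchanged was not tested, and KO and control name the labels throughout. No library was moved, and each result is given with all 6 libraries and without both R2 libraries. No 2 libraries agreed within sampling noise, with a chi-square per degree of freedom of at least 13.1. Of the line's markers, VIM stood at 1420 to 2760 CPM in KO and 1900 to 3580 CPM in control libraries, ESR1 stood under 0.5 CPM in each library, and PGR had 0 counts. The 5 hormone receptor and luminal markers together summed to 58.5 to 70.8 CPM in KO and 74.5 to 104 CPM in control libraries. Most of this was ERBB2, at 52.2 to 59.4 CPM in KO and 67.9 to 97.7 CPM in control libraries. The 7 blood and immune markers, of which 3 had 0 counts in all libraries, summed to 0.26 to 4.51 CPM in KO and 0.191 to 3.72 CPM in control libraries. In KO R2, control R1 and control R3 most of this was PTPRC, the pan-leukocyte gene CD45, at 0.106, 3.28 and 0 CPM in the KO libraries, against 2.98, 0.0478 and 2.92 CPM in the control libraries. The 7 endothelial and stromal markers summed to 26.1 to 52.4 CPM in KO and 47.8 to 66.5 CPM in control libraries, with CDH5 at 0 counts in all 6. One of them, PDGFRB, a receptor of stromal cells, divided the libraries as DAPK3 did, at 1.17, 11.5 and 1.17 CPM in the KO libraries, against 16.8, 1.96 and 19.4 CPM in the control libraries. It was the 1 marker called of the 4 tested from this list without both R2 (−3.96 on the log2 scale, edgeR adjusted p = 0.000146). The others tested, PDGFRA, DCN and PECAM1, did not divide this way. PDGFRA stood at 39.2, 24.5 and 20.4 CPM in the KO libraries, against 34.3, 34.9 and 33.7 CPM in the control libraries. The part of these marker lists in the results that follow was not tested.

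The start regions of these genes are of different kinds, and 5 of the 10 members had one in the RefSeq table used (GRCh38.p14), each running from 250 bases before to 50 bases after the start. They are shown to set MMP7, which had almost no RNA, beside expressed members. Capitals mark, on either strand, the AP-1 motif TGANTCA, the TATA box TATAAA and the GC box GGGCGG. MMP10, from the same gene cluster as MMP7 but with MMP20, MMP27 and MMP8 between them, is not a member and is given for comparison. The expressed members shown are MMP14, MMP15 and TIMP3.
MMP7, chr11:102530698-102530997, minus strand: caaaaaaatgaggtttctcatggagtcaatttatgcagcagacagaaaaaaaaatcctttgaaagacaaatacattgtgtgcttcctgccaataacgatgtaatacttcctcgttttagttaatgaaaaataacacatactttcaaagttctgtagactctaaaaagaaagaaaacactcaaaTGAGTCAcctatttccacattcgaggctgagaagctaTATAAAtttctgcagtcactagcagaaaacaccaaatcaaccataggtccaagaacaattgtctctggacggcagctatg
MMP10, chr11:102780579-102780878, minus strand: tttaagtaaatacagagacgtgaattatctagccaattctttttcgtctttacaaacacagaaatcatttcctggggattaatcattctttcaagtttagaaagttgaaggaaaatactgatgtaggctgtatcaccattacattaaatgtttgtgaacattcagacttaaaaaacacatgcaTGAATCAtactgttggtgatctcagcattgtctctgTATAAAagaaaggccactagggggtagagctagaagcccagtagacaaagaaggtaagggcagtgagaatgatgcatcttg
MMP14, chr14:22836335-22836634, plus strand: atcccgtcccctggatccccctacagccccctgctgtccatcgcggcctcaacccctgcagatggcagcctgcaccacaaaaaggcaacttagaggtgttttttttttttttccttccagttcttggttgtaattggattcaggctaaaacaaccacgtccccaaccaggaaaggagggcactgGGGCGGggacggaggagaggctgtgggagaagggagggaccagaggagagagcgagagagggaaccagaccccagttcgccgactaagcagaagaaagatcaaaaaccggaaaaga
MMP15, chr16:58025504-58025803, plus strand: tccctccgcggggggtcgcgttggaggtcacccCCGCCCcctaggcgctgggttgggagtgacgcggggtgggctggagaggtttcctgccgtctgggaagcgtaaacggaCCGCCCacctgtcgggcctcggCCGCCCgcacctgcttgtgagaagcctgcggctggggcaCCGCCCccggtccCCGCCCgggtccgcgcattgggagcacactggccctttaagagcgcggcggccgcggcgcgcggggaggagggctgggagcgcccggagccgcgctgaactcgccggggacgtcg
TIMP3, chr22:32801455-32801754, plus strand: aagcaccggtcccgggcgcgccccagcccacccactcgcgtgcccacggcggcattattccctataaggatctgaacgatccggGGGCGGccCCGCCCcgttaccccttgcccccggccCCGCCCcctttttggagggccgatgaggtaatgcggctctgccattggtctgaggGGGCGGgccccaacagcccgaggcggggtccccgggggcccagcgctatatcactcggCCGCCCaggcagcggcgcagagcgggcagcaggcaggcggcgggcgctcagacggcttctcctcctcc

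With the first transcribed base as +1, the AP-1 motif began at −67 in both MMP7 and MMP10, and the TATA box at −30 in MMP7 and at −31 in MMP10. Of the other genes of their cluster, only MMP20, MMP8 and MMP27 had a window in the promoters used, and these differed. MMP1, MMP3, MMP12 and MMP13 had none, so whether they share the layout of MMP7 and MMP10 was not tested. MMP20 held the AP-1 motif at −112 and the TATA box at −72, MMP8 a TATA box at −110 and no AP-1 motif, and MMP27 neither. MMP14, MMP15, TIMP1 and TIMP3 held neither motif in this window. They held GC boxes instead, 1 in MMP14, 5 in MMP15, 5 in TIMP3 and 2 in TIMP1, where MMP7 and MMP10 held 0. Among 35114 promoters of the same length, 7.71% held the AP-1 motif, 11.5% the TATA box and 45.0% the GC box. G and C made up 35.7% of the MMP7 window, 55.0% of MMP14, 75.3% of MMP15 and 72.7% of TIMP3, beside a median of 58.7% over all promoters. The short ETS core GGAA was found in 95.5% of promoters. These are matches of letters, not measured sites.

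For 4 members there was almost no RNA. MMP1, interstitial collagenase, had 1, 0 and 4 counts in the KO libraries, against 2, 2 and 9 counts in the control libraries. MMP3, stromelysin 1, had 0, 1 and 3 counts in the KO libraries, against 3, 1 and 7 in the control libraries. MMP7, matrilysin, had 0, 2 and 0 counts in the KO libraries, against 4, 1 and 3 in the control libraries. For all 3 genes the KO and control libraries overlapped, and none passed the filter on low counts, so none was tested. MMP9, gelatinase B, had 1 count in KO R1 and 0 in the other 5 libraries. A count of 0 allows up to 0.131 to 0.184 CPM, depending on the library, as a one-sided limit (3 counts of its total). The exact (Clopper-Pearson) two-sided 95% interval for 0 counts reached 0.161 to 0.226 CPM. The largest of the members' values here, MMP1 in control R3, was 0.449 CPM of the unscaled total, with an exact 95% interval of 0.205 to 0.853. Such limits cover counting error only.

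MMP1, MMP3 and MMP7 lie in a cluster of 9 MMP genes on chromosome 11 (GRCh38, 102520508 to 102955734, GENCODE release 29). MMP7 is at one end (102520508 to 102530753), MMP1 at 102789920 to 102798160 and MMP3 at 102835801 to 102843803, all on the minus strand. Over the whole cluster the libraries held 1, 4 and 7 counts in the KO libraries, against 9, 5 and 20 counts in the control libraries. No gene of the cluster passed 9 counts in any library, and 4 of the 9, MMP8, MMP10, MMP12 and MMP27, had 0 throughout. These sums overlapped between the groups and were not tested. MMP9 lies elsewhere, on chromosome 20 (46008908 to 46016561, plus strand).

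MMP2, MMP14, MMP15 and the 3 TIMP genes were expressed and tested. In the comparison of all 6 libraries by label, none of these 6 was called at an adjusted p under 0.05, nor was any other gene (0% of 14613 tested). At an unadjusted p under 0.05 there was 1 member, MMP15, where 7.66% of all genes tested passed. The comparison of the 4 libraries left without both R2 was added with the data in view. There 5 of the 6 members were called, 4 lower in KO and 1 higher, where 27.3% of 14846 genes were called, 15.2% lower and 12.2% higher. The median log2 fold change of the 6 was −0.74 with all libraries, beside 0 over all genes tested, and −1.47 without both R2, beside −0.02. The 6 are the members that passed the filter. In bulk RNA, fewer cells of a type and less RNA per cell cannot be told apart.

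MMP2 (ENSG00000087245, chromosome 16, 55389700 to 55506691, plus strand) encodes gelatinase A, which cuts denatured collagen and type IV collagen. It stood at 73.8, 219 and 91.3 CPM in the KO libraries, against 306, 121 and 296 CPM in the control libraries. KO R2 stood above control R2, so the labelled groups overlapped, and the 3 highest libraries, KO R2, control R1 and control R3, were those with 26.1 CPM or more of DAPK3. Among those 3, KO R2 was the lowest, and among the 3 with 13.1 CPM or less of DAPK3, control R2 was the highest. The group levels were 128 ± 79.1 CPM in KO and 241 ± 104 CPM in control (SD, n = 3). The log2 ratio of KO over control in the fit was −0.91 (SE 0.51, edgeR adjusted p = 0.692). It was −1.88 (SE 0.14, edgeR adjusted p = 0.000319) without both R2 libraries.

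TIMP2 (ENSG00000035862, chromosome 17, 78852977 to 78925387, minus strand) followed the same order of libraries as MMP2 except that KO R1 and KO R3 changed places. It stood at 93.3, 209 and 82.6 CPM in the KO libraries, against 304, 109 and 288 CPM in the control libraries. As for MMP2, KO R2 stood below control R1 and R3, and KO R1 and R3 stood below control R2, while the labelled groups overlapped. The fold change on the log2 scale was −0.86 (SE 0.50, edgeR adjusted p = 0.696) over 6 libraries and −1.77 (SE 0.12, edgeR adjusted p = 0.000207) without both R2. Genes on the opposite strand inside the TIMP2 and MMP2 loci stood at no more than 0.757 CPM of the unscaled total, with MMP2-AS1 at 0.

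MMP14 (ENSG00000157227, chromosome 14, 22836557 to 22849027, plus strand), the membrane-type MMP that activates MMP2, was low. It stood at 1.91, 7.85 and 1.65 CPM in the KO libraries, against 6.50, 1.77 and 9.26 CPM in the control libraries, on 36 to 184 counts a library. KO R2, control R1 and control R3 were high and the other 3 libraries low, with the label making no visible order within either set. The fold change on the log2 scale was −0.62 (SE 0.80, edgeR adjusted p = 0.85) over 6 libraries and −2.16 (SE 0.31, edgeR adjusted p = 0.00352) without both R2.

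MMP15 (ENSG00000102996, chromosome 16, 58025566 to 58046901, plus strand), a second membrane-type MMP, went with the label instead. It stood at 4.94, 3.77 and 3.78 CPM in the KO libraries, against 10.8, 6.74 and 8.55 CPM in the control libraries, on 61 to 222 counts a library. Every KO library lay below every control library, at 4.16 ± 0.674 CPM in KO and 8.71 ± 2.06 CPM in control (SD, n = 3), and KO R2 was among the low ones. MMP15 was the 1 tested member whose groups did not overlap, where the ranges of 13.8% of all genes tested did not overlap. The fold change on the log2 scale was −1.06 (SE 0.26, edgeR adjusted p = 0.635) over 6 libraries, which does not pass the adjustment. It was −1.17 (SE 0.25, edgeR adjusted p = 0.0157) without both R2, and −0.98 (adjusted p = 0.0704) when control R1 was left out as well.

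TIMP3 (ENSG00000100234, chromosome 22, 32801701 to 32863043, plus strand), the inhibitor that binds to the matrix, ran opposite to MMP2, MMP14 and TIMP2. It stood at 192, 45.6 and 186 CPM in the KO libraries, against 35.5, 201 and 59.9 CPM in the control libraries. KO R1, KO R3 and control R2 were high and close to each other, and the labelled groups overlapped. The fold change on the log2 scale was 0.52 (SE 0.76, edgeR adjusted p = 0.867) over 6 libraries and 1.97 (SE 0.24, edgeR adjusted p = 0.00187) without both R2. SYN3, the gene on the opposite strand whose span holds TIMP3, stood at 0.0536 CPM of the unscaled total or less.

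TIMP1 (ENSG00000102265, chromosome X, 47582313 to 47586789, plus strand), a secreted inhibitor of most MMPs, varied little. It stood at 139, 146 and 109 CPM in the KO libraries, against 148, 115 and 139 CPM in the control libraries. The groups overlapped, at 131 ± 19.7 CPM in KO and 134 ± 17.1 CPM in control (SD, n = 3). The fold change on the log2 scale was −0.03 (SE 0.16, edgeR adjusted p = 0.966) over 6 libraries and −0.23 (SE 0.14, edgeR adjusted p = 0.269) without both R2, neither called.

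**Figure D1:**
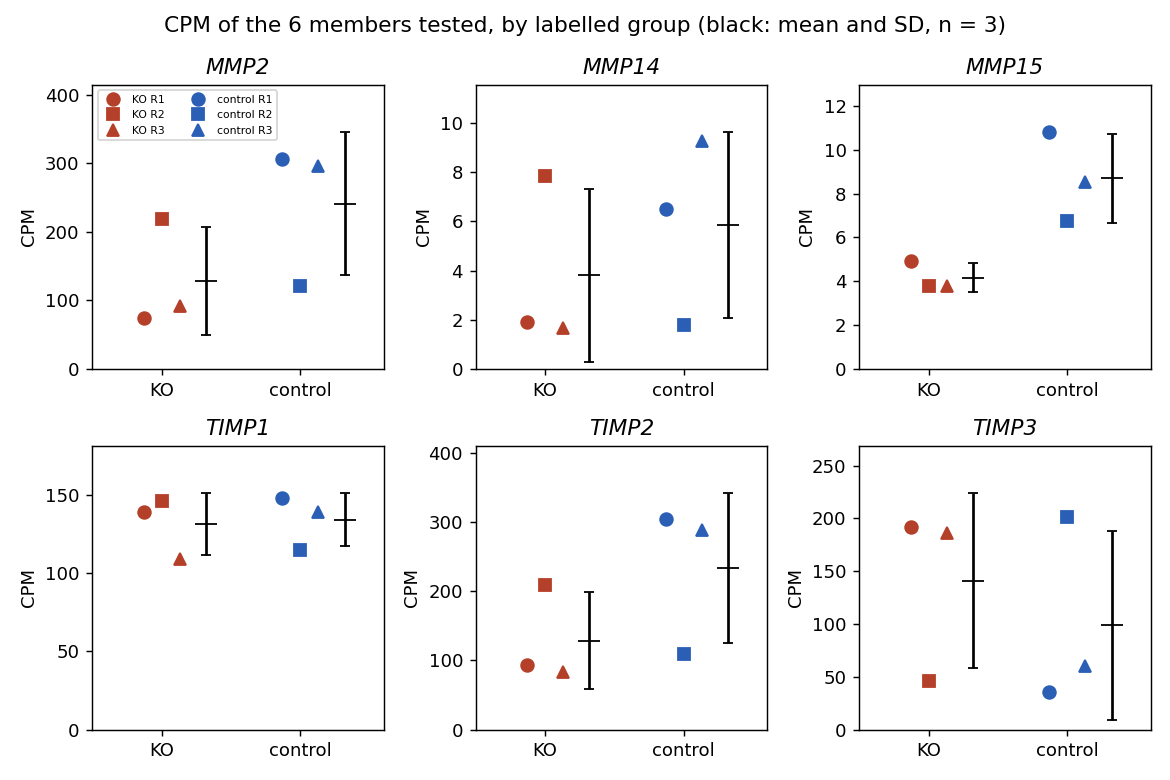
CPM of the 6 members tested in each library, KO left and control right, with the mean and SD of each labelled group (n = 3) in black. MMP15 alone of the 6 shows KO libraries, at 3.77 to 4.94 CPM, all under the control libraries, at 6.74 to 10.8 CPM, while square markers (R2) stand away from their group for MMP2, MMP14, TIMP2 and TIMP3.

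Set beside DAPK3 RNA in the same library, the 6 members fell into 4 kinds of pattern. MMP14 and TIMP3 went with the DAPK3 level and not with the label, MMP14 high and TIMP3 low in the libraries with more DAPK3 RNA. MMP2 and TIMP2 were high where DAPK3 was high and, at like DAPK3 levels, lower in KO than in control libraries. At high DAPK3 the only KO library was R2, and at low DAPK3 the only control library was R2. MMP15 went with the label, and TIMP1 with neither. The division of MMP2, MMP14, TIMP2 and TIMP3 by DAPK3 level was not particular to these members. PDGFRB and VCAN divided the libraries as MMP14 did, and COL4A1 as TIMP3 did. How many of all genes divide this way was not counted. The libraries lie at 2 separate DAPK3 levels, so no correlation is given.

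**Figure D2:**
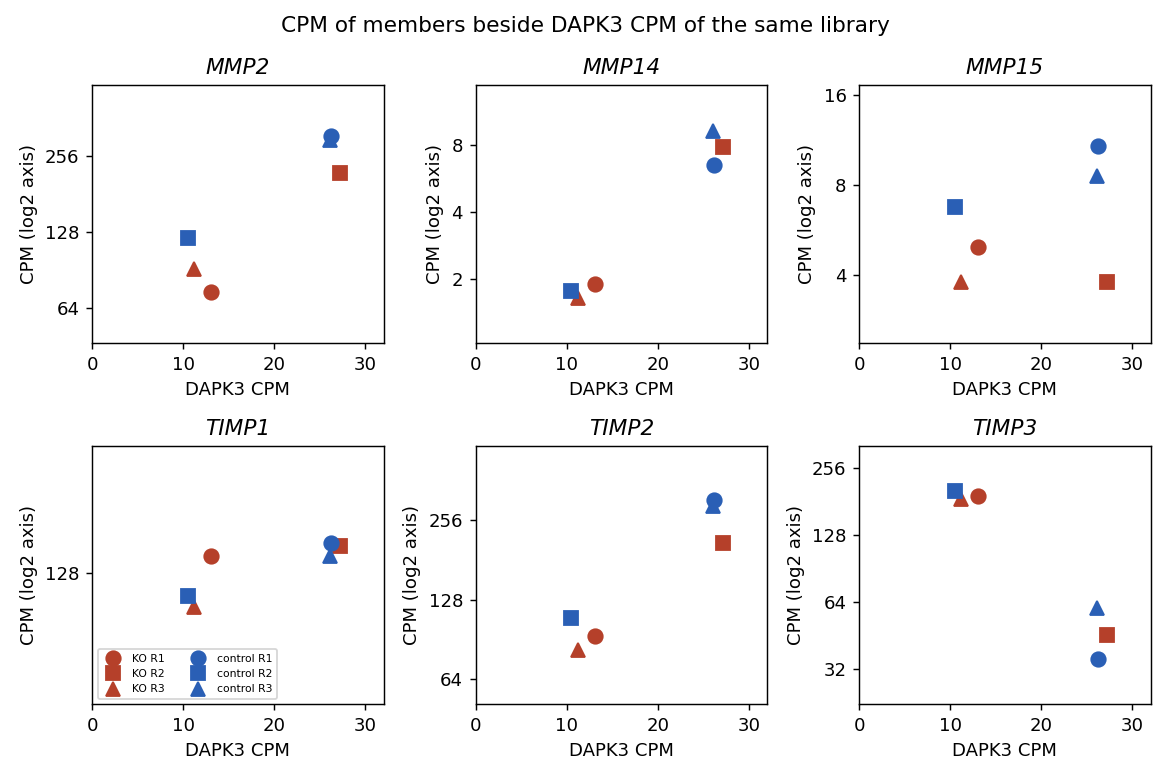
CPM of each tested member (log2 axis) against DAPK3 CPM of the same library, KO libraries in red and control libraries in blue, 1 marker shape per replicate number. MMP2, TIMP2 and MMP14 are higher at 26.1 to 27.2 CPM of DAPK3 than at 10.5 to 13.1 CPM, TIMP3 is lower there, and MMP15 in KO R2 stays at 3.77 CPM.

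A fit with the log2 DAPK3 level of each library as a covariate, added after seeing the data, gave the label difference at like DAPK3 RNA. That difference rests on the R2 libraries, the only ones of their label at their DAPK3 level. No gene was called (0% of 14613 tested, smallest edgeR adjusted p = 0.108), and 2461 genes, 16.8%, had an unadjusted p under 0.05. Of the 6 members 3 were among these, all lower in KO. TIMP2 stood at −0.55 on the log2 scale (SE 0.09, edgeR adjusted p = 0.108). MMP2 had −0.65 (SE 0.15, edgeR adjusted p = 0.123), and MMP15 had −0.99 (SE 0.24, edgeR adjusted p = 0.135). MMP14 at −0.21 (SE 0.23), TIMP3 at 0.16 (SE 0.20) and TIMP1 at 0.04 (SE 0.11) had edgeR adjusted p-values of at least 0.689. The label difference of MMP15 thus had nearly the same size in all 3 fits, and those of MMP2, MMP14, TIMP2 and TIMP3 did not.

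**Figure D3:**
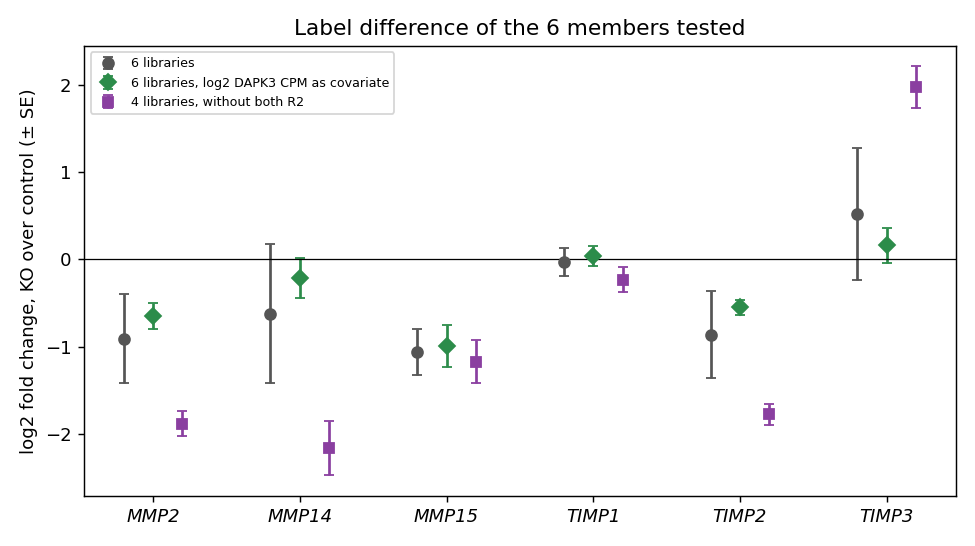
log2 fold change of KO over control with its SE for the 6 members tested, in the fit of 6 libraries, the fit of 6 libraries with log2 DAPK3 CPM as covariate, and the fit of 4 libraries without both R2. MMP15 lies between −1.17 and −0.99 in all 3, TIMP3 between 0.16 and 1.97 and MMP14 between −2.16 and −0.21.

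To compare levels between genes, CPM was divided by the length of each gene's merged exons. TIMP1 was the highest of the 10 members in each library, at 70.5 to 95.9 CPM per kilobase. MMP2 (15.0 to 62.0), TIMP2 (14.7 to 54.0) and TIMP3 (7.72 to 43.7 CPM per kilobase) came next, and their ranges overlapped, so their order is not beyond their spread. TIMP3 stood next to TIMP1 in KO R1, KO R3 and control R2 and behind MMP2 and TIMP2 in the other 3 libraries. MMP15 (0.854 to 2.45) and MMP14 (0.37 to 2.07 CPM per kilobase) also overlapped each other, and MMP1, MMP3, MMP7 and MMP9 stood at 0.23 or less.

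The make-up of the inhibitor RNA varied more between libraries than its sum. Summed over the 3 genes, TIMP RNA stood at 148, 142 and 126 CPM per kilobase in the KO libraries, against 158, 137 and 154 in the control libraries. TIMP3 made up 28.2%, 7.0% and 32.2% of it in the KO libraries, against 4.9%, 31.8% and 8.44% in the control libraries. TIMP2 made up 11.2%, 26.2% and 11.7% in the KO libraries, against 34.3%, 14.1% and 33.2% in the control libraries. TIMP3 took the larger share in KO R1, KO R3 and control R2, and TIMP2 in the other 3 libraries.

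Among the 7 MMP members, RNA was mostly MMP2, which held 90.4% to 94.3% of their summed level in KO and 92.4% to 93.8% in control libraries. This sum, also used for the ratio that follows, leaves out other MMP genes. Among those were MMP19 at 17.1 to 29.5 CPM and MMP17 at 4.10 to 8.17 CPM, not divided by length. The merged exons of MMP19 span 4.67 kilobases, beside 4.46 for MMP14 and 4.42 for MMP15, and its CPM was above both in every library. The share of MMP2 thus holds for the members chosen and would be lower over all MMP genes. The ratio of summed MMP to summed TIMP level was 0.112, 0.332 and 0.158 in the KO libraries, against 0.419, 0.193 and 0.418 in the control libraries. It was under 1 in every library, and KO R2 and control R2 again stood apart from their groups. The ratio of MMP2 to TIMP2 varied less than either gene, at 0.903, 1.19 and 1.26 in the KO libraries, against 1.15, 1.27 and 1.17 in the control libraries. These are levels of RNA, not of protein or of protease activity.

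**Figure D4:**
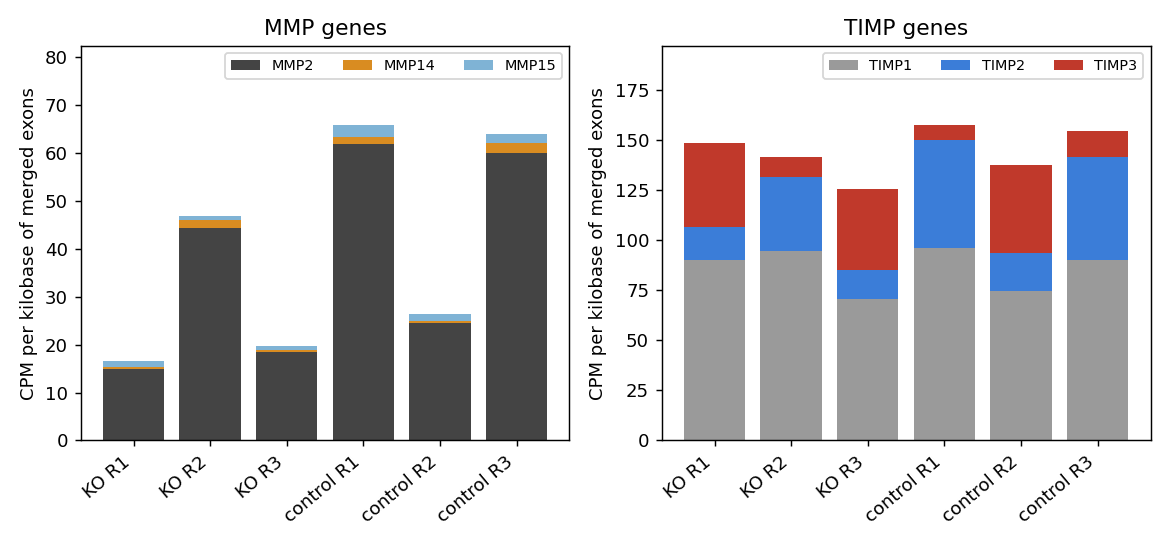
Stacked levels in CPM per kilobase of merged exons for the 3 MMP members tested (left) and the 3 TIMP genes (right), 1 bar per library, KO libraries left of control libraries. MMP2 fills most of each MMP bar, and in the TIMP bars TIMP3 is wide where TIMP2 is narrow, in KO R1, KO R3 and control R2.

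Other genes were ranked by how closely their log2 CPM, centred on each gene, followed each member over the 6 libraries, out of 12079 genes, with the root mean square difference as measure. Nearest to MMP2 were RCAN3 (0.109), LMO7 (0.119) and DHRS7 (0.124), and TIMP2 ranked 16 at 0.164. MMP14 was further off, at rank 467 from MMP2 (0.425) and rank 480 from TIMP2 (0.396). Ranked from MMP14, MMP2 was at 162 and TIMP2 at 134. Nearest to TIMP2 were SDC2, encoding the proteoglycan syndecan 2 (0.0869), PLA2R1 (0.0871) and CYBRD1 (0.0898). Nearest to MMP14 were CYFIP2 (0.137), ADAMTS7, another metalloproteinase (0.146), and ITGA1, an integrin chain that binds collagen (0.169). For MMP15 they were ABHD15 (0.0964), SAMD1 (0.125) and PCYOX1 (0.147), all with every KO library below every control library. They were chosen for following MMP15 over these same libraries, so this goes with the choice and is not a separate result. The ranges of 13.8% of all genes tested did not overlap. SAMD1, for example, stood at 23.1, 20.8 and 18.9 CPM in the KO libraries, against 44.5, 32.6 and 38.2 CPM in the control libraries. For TIMP3 they were ZNF354C (0.128), ARHGAP27 (0.165) and GMIP (0.192). TIMP1 varied too little to be ranked by the rule used.

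Of 16 further MMP genes, 6 were tested and 0 called by label, with a median log2 fold change of 0.24. MMP19 stood at 18.9, 29.5 and 18.5 CPM in the KO libraries, against 18.5, 17.1 and 18.2 CPM in the control libraries, so KO R2 alone was high. MMP17, a membrane-anchored MMP, stood at 6.43, 6.93 and 7.99 CPM in the KO libraries, against 4.10, 8.17 and 5.89 in the control libraries. Without both R2 libraries 1 of 7 was called lower and 1 higher, where 15.2% of all genes were called lower and 12.2% higher. The MMPs called were MMP16, another membrane-type MMP (log2 fold change −4.09, edgeR adjusted p = 0.00153), and MMP28, epilysin (2.40, edgeR adjusted p = 0.0143), both named after their values were seen. MMP16 stood at 0.159, 4.08 and 0.347 CPM in the KO libraries, against 5.18, 0.239 and 3.82 CPM in the control libraries, the same division as for MMP14.

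Among 4 other inhibitors, TIMP4 and A2M had 0 counts in all libraries, and RECK and TFPI2 were tested. RECK, a membrane-anchored inhibitor of several MMPs, stood at 1.06, 3.03 and 0.868 CPM in the KO libraries, against 5.52, 1.48 and 7.25 CPM in the control libraries. TFPI2, a secreted serine protease inhibitor, stood at 3.45, 14.3 and 1.87 CPM in the KO libraries, against 27.0, 2.25 and 19.3 CPM in the control libraries. Neither was called by label. Without both R2 both were called lower, where 15.2% of all genes were. RECK had −2.74 (edgeR adjusted p = 0.00188) and TFPI2 −3.15 (edgeR adjusted p = 0.000994) on the log2 scale.

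Of 17 genes for activation, docking and uptake of MMPs, 14 were tested and 0 called by label, with a median log2 fold change of −0.12. FURIN, the protease that cuts the MMP14 proenzyme, stood at 65.4 to 89.1 CPM in KO and 69.6 to 77.0 CPM in control libraries. Its log2 fold change was 0.02 (edgeR adjusted p = 0.977). CD44, a hyaluronan receptor, stood at 304, 421 and 407 CPM in the KO libraries, against 526, 433 and 444 CPM in the control libraries. Its log2 fold change was −0.31 (edgeR adjusted p = 0.674). The groups did not overlap, as for 13.8% of all genes tested, and CD44 was named by its small p-value, with which such ranges go. Without both R2, 4 of 14 were called lower and 2 higher, where 15.2% of all genes were called lower and 12.2% higher. ITGB3, an integrin chain of the receptor for vitronectin, had −3.62 (edgeR adjusted p = 0.000465), and LRP1, an endocytic receptor that takes up MMPs, had −0.86 (edgeR adjusted p = 0.0191). PCSK6, a proprotein convertase, had 0.98 (edgeR adjusted p = 0.00636).

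Of 19 transcription factors known to act on MMP promoters, all tested, 0 were called by label. At an unadjusted p under 0.05 there were 5 higher in KO and 0 lower, where 7.66% of all genes passed, and the median over the list was 0.23 on the log2 scale, beside 0 over all genes. FOSL1, an AP-1 subunit, stood at 260, 240 and 280 CPM in the KO libraries, against 164, 203 and 146 CPM in the control libraries, at 0.61 on the log2 scale (SE 0.15, edgeR adjusted p = 0.635). JUN, its partner, stood at 54.9, 48.3 and 43.3 CPM in the KO libraries, against 39.0, 30.5 and 27.2 CPM in the control libraries. ETS1 (log2 fold change 0.52, SE 0.12), RUNX1 (0.48, SE 0.11) and ETV5, named after its values were seen (0.51, SE 0.17), were the others. Every KO library stood above every control library for these 5 and for no other of the 19, where the ranges of 13.8% of all genes tested did not overlap. The 5 were named by their small p-values, with which such ranges go, so this is not a separate result. Without both R2, 10 of the 19 were called higher and 2 lower, where 12.2% of all genes were called higher and 15.2% lower, with FOSB at 2.15 (edgeR adjusted p = 0.00292) and RUNX2 at −2.71 (edgeR adjusted p = 0.00055) among them.

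Substrate genes were called in both directions without both R2 and in neither by label. Of 18 matrix and adhesion genes whose proteins MMPs cut, 15 were tested and 0 called by label, with a median log2 fold change of −0.40. Without both R2, 8 of 15 were called lower and 6 higher, where 15.2% of all genes were called lower and 12.2% higher, and the median was −1.69, beside −0.02 over all genes. VCAN, the proteoglycan versican, stood at 1.33, 14.7 and 0.521 CPM in the KO libraries, against 18.4, 1.53 and 17.7 CPM in the control libraries. VCAN was called lower (log2 fold change −4.33, edgeR adjusted p = 0.00048) without both R2. COL4A1, a chain of the type IV collagen of basement membranes, stood at 116, 17.1 and 129 CPM in the KO libraries, against 17.8, 119 and 18.0 CPM in the control libraries. It was called higher without both R2 (2.76, edgeR adjusted p = 6.97e-05), as was COL4A2, its partner chain (2.83, edgeR adjusted p = 6.97e-05), both named after their values were seen. CDH1, encoding the junction protein E-cadherin, had at most 0.0503 CPM in any library.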

How the data were processed

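Human SUM159 RNA was measured in 3 KO and 3 control libraries. The authors deposited expected counts per gene, made with RSEM per the file headers, which need not be whole (9.42% to 10.6% of values a library were not) and are not normalized. RSEM, Bowtie2, edgeR and GRCh38 are named in the submitters' processing notes. Tool versions, strand setting and annotation release: not given in the sources used here.

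Expected counts were rounded and tested over the whole table with edgeR 4.0.16 in R 4.3.3 (quasi-likelihood test, TMM, filterByExpr, Benjamini-Hochberg over all genes tested, called at an adjusted p under 0.05). The SE is the absolute log2 fold change over the root of F. CPM are rounded counts over the library total times its TMM factor. Likeness used log2 CPM with a prior count of 2. Coordinates and exon lengths are from GENCODE release 29 on GRCh38, which may not be the authors' release. A promoter motif comparison used RefSeq sequences. Protein sequences were not used here. Alternatives were other scalings (RLE, upper-quartile, library size), filters, DESeq2 1.42.0, limma-voom (limma 3.58.1), a replicate block and each library left out. The fits without both R2 libraries and with log2 DAPK3 CPM as covariate were added after seeing the data. Genes named beside the 10 members were, per list, up to 4 with the smallest p and up to 4 called with the largest change, at a mean log2 CPM of at least 1, or the most expressed where none was called, unless said otherwise, and the 3 genes most like each varying member. Not all genes that this rule allows are named, and some are not reported here. FURIN, ETV5, COL4A1, COL4A2, MMP16, MMP28, SYN3, MMP2-AS1 and genes given as at or near 0 were chosen after their values were seen. The members, lists and tests were chosen with earlier results of these data known. The fits were tested on simulated counts with known changes, and the outcome is not reported here.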

Additional observations from a re-analysis of the deposited data

How the results depend on the processing

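With all 6 libraries, 0 genes and 0 of the 6 members tested were called with each other scaling, filter and tool, with the block and with each library left out, except that DESeq2 called 124 genes (52 higher, 72 lower) and 0 members, with MMP15 at an adjusted p of 0.0521. For edgeR, 1119 genes had an unadjusted p under 0.05. Without both R2 libraries 4055 genes and 5 members were called. With log2 DAPK3 CPM as a covariate 0 genes and 0 members were called. At an unadjusted p under 0.05 the lists held 5 of 19 regulators and 1 of 15 substrates, where 7.66% of all genes tested passed. Without both R2 libraries 2 of 7 other MMPs, 2 of 2 other inhibitors, 6 of 14 activation and surface partners, 12 of 19 regulators and 14 of 15 substrates were called. The share over all genes tested was 27.3% there. Of the members' directions only that of TIMP1 turned, at 0.04 with the covariate and between −0.15 and 0.07 over the libraries left out in turn. Over the same 6 fits, none of which called a member, MMP2 ran from −1.56 without KO R2 to −0.65 without KO R1, TIMP2 from −1.43 without KO R2 to −0.63 without control R1, and MMP15 from −1.24 to −0.88. MMP14 ran from −1.73 without KO R2 to −0.14 without control R3, and TIMP3 from 0.11 without control R1 to 1.55 without control R2. The cause was not tested. Without both R2, leaving out 1 more library gave 2543 to 3700 genes and 4 to 5 members, with 2543 and 4 when control R1 was left out, a fit that takes the spread of control R3 from the KO libraries. MMP15 was the member lost. The other scalings, filters and tools called 5 members there. The replicate number as a block gave 0 genes in all 6 libraries, and 2705 genes and 5 members without both R2, and it changed no call of a member. Same-numbered libraries deviated from their group means in opposite directions, with correlations of −0.65, −0.85 and −0.7. KO R2 correlated with control R1 (0.77) and R3 (0.64), control R2 with KO R1 (0.61) and R3 (0.79), and 0 of the 6 libraries correlated best with their own number. Deviations within a group cancel, so the R2 libraries, which went opposite ways, shape all these values. Whether the numbers pair libraries cannot be told from them. Depth limits MMP1, MMP3, MMP7 and MMP9, with at most 9 counts a library.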
